A study of Mus musculus with 2 samples.

Results

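The semaphorins, their plexin receptors and their neuropilin coreceptors were read from single-cell RNA profiles of mouse embryos at E11.5. The members are 31 genes, given as a list of symbols and each found once among the 21937 gene features counted, of which 20 are semaphorins, 9 are plexins and 2 are neuropilins. The embryos carried a piggyBac transposon insert in which the CAG promoter drives EGFP with a DNA barcode. Founder embryos F0_8 and F0_9 were 1 embryo each, F1_1 was 1 F1 embryo, and F1_mix was a pseudo-mosaic sample, a mixture of cells from 2 further F1 embryos counted here as 1 suspension. Each suspension was tagged with its own multiplexing oligo and the 4 were loaded as 1 pool. The series holds 2 samples, the gene expression library and the multiplexing oligo library of that pool. All groups carried the transgene, and no embryo without it was measured. Generation and embryo cannot be told apart with 2 suspensions a generation, and the mixed F1 suspension averages over 2 embryos.

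Semaphorins are guidance cues for axons, neural crest cells and blood vessels. Class 3 members are secreted and mostly bind a neuropilin, which pairs with an A-type plexin that carries the signal into the cell. Membrane-bound semaphorins of classes 4 to 7 mostly bind plexins directly, and plexins act through a cytoplasmic domain that switches off small GTPases and so loosens the cytoskeleton and its adhesions.

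Of 6006 cell barcodes, none lay in more than 1 suspension, and 5678 cells with an annotation were used, with 1599 and 1318 from the founders F0_8 and F0_9, and 1310 and 1451 from F1_1 and F1_mix. A UMI marks 1 captured RNA molecule, and the suspensions held from 16052917 to 19160116 gene UMIs. The cells carried 16 annotated labels, and 12 of these, called deep here, held 4309 cells with a median depth per label of 10898.5 to 29076 UMIs. The other 4 (Endodermal Progenitor, Foregut, Hepatocyte and Midgut), called shallow, held 1369 cells at medians of 721.5 to 1674 UMIs, and the median share of mitochondrial UMIs was 23.0% to 55.9% in them and 0.297% to 2.76% in the deep labels. The labels are the authors' own and are used as names. Marker sets, measured per 10000 UMIs outside mitochondrial genes, were highest in their own label for 6 of the 12 deep labels and for none of the 4 shallow ones. The Sox2, Fabp7, Pax6 and Slc1a3 set stood at 0.718 in cells labelled Neuroectoderm/Glia and 20.5 in Neuronal Progenitor, while neuronal markers (Tubb3, Stmn2, Elavl3 and Elavl4) stood at 74.7 in Neuroectoderm/Glia and 61.8 in CNS Neuron. The Chondrocyte set (Sox9, Col2a1, Acan and Matn4) stood at 7.16 in Gut Mesenchyme/Amniotic Mesoderm and 5.59 in Chondrocyte. The Gut Mesenchyme/Amniotic Mesoderm set (Foxf1, Osr1, Tcf21 and Wt1) stood at 1.76 in its own label and 1.90 in Chondrocyte. Neurog1, Neurog2, Neurod1 and Dll1, the Neuronal Progenitor set, stood at 2.33 there and 5.49 in CNS Neuron. Cdx1, Cdx2, Hnf4a and Sox17 were all at 0 in Midgut, and Afp was at 0 in Hepatocyte. Markers of peripheral and motor neurons (Isl1, Prph, Pou4f1 and Mnx1) were highest in CNS Neuron at 3.99. The Hematoendothelial Progenitor/Endothelium label held macrophage markers at 43.6 and endothelial markers at 7.98.

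Members were sparse, with between 11 UMIs (Plxnb3) and 12642 UMIs (Sema3a) in the deep labels. A level below is the gene's UMIs per 10000 gene UMIs, summed over the cells of a label, and 4 values in a row stand for F0_8, F0_9, F1_1 and F1_mix. Levels are compared for 1 gene across labels, and never between genes. Differences between labels are given as descriptions with no test, since the labels were drawn from clusters of these same cells. Free RNA, estimated from globin UMIs as a share of the globin level in 1435345 droplets of 1 to 100 gene UMIs, came to between 0.581% and 0.671% in 8 deep labels, 6.63% in Myoblast/Cardiomyocyte, 41.0% in Hematoendothelial Progenitor/Endothelium and 2.18% to 22.3% in the shallow labels. Globin held by the cells themselves enters that estimate, and in Hematoendothelial Progenitor/Endothelium it lay in the macrophage-marker cells described below (3.06% of their UMIs, against 0.0121% in endothelial-marker cells and 0.0119% in the rest), so the value of that label is not a free RNA share. By this estimate, 283 of 310 pairs of a member and a deep label outside red blood cells lay above double the level that free RNA would give. In the shallow labels 108 of 124 pairs did. The 310 include the pairs of Hematoendothelial Progenitor/Endothelium, counted with the value of 41.0%, so for that label the count does not measure free RNA.

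**Figure D1:**
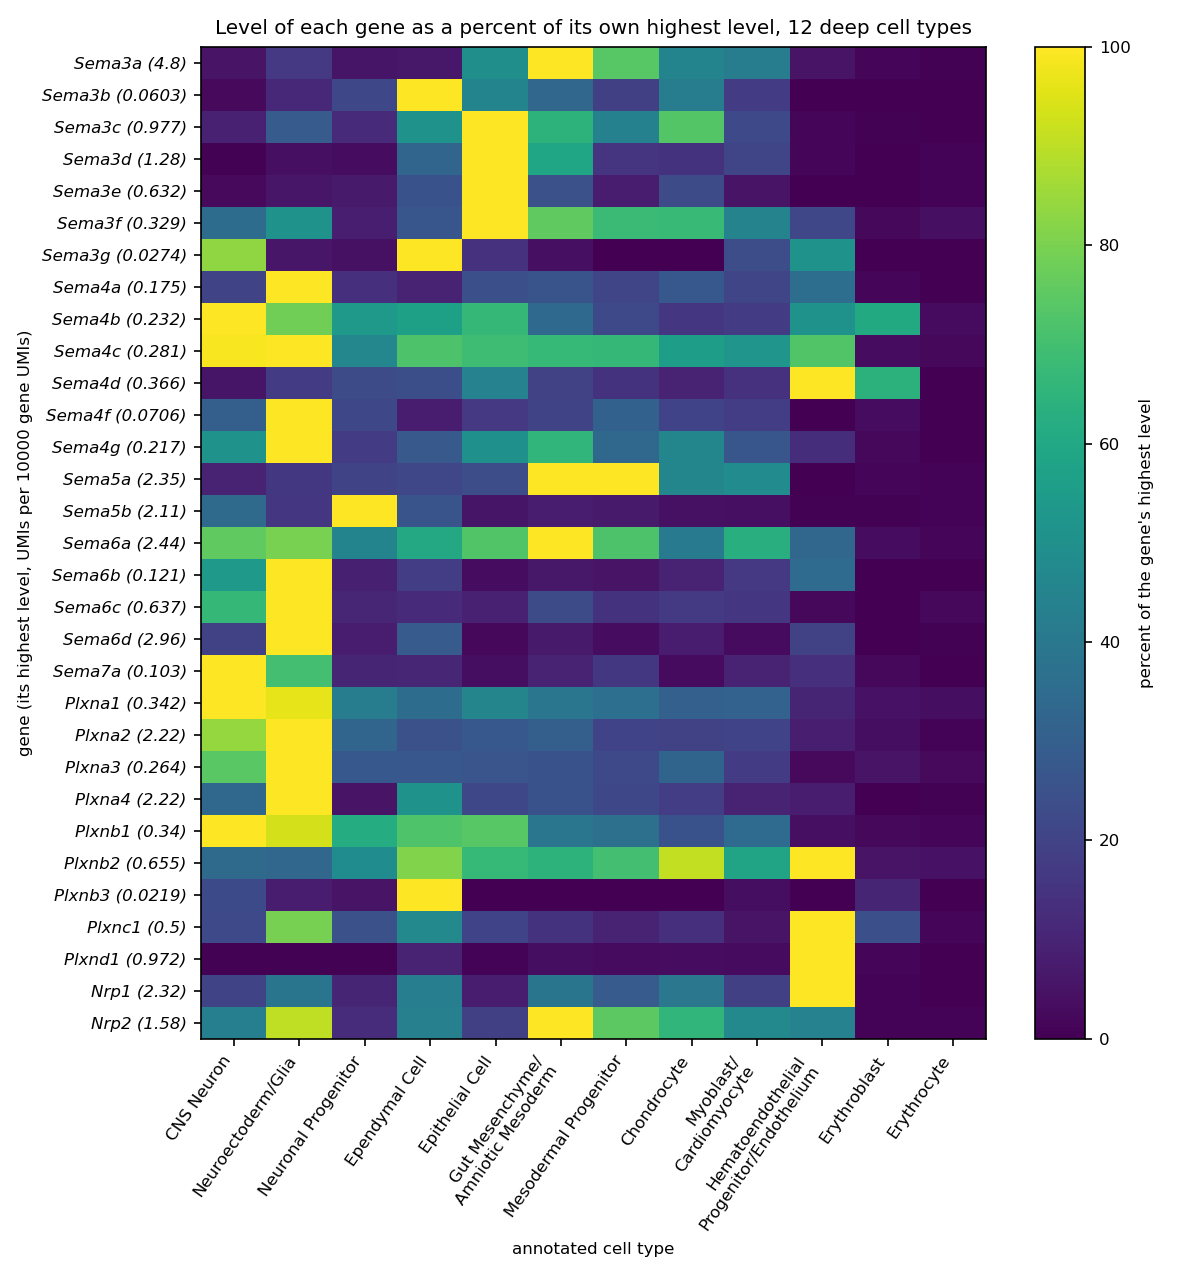
Level of each of the 31 genes in the 12 deep labels, as a percent of the highest label of that gene, with the highest level (UMIs per 10000 gene UMIs) in parentheses. Neuroectoderm/Glia is the highest label of 10 genes, the most of any label.

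Of the 7 secreted class 3 ligands, 5 were highest in Gut Mesenchyme/Amniotic Mesoderm or Epithelial Cell. Sema3a, the classic collapsing factor of growth cones, had levels of 4.49, 5.19, 4.76 and 4.87 in Gut Mesenchyme/Amniotic Mesoderm. All 4 lay above the highest suspension of Mesodermal Progenitor at 4.17, the label second in order at 3.55 over all suspensions, and the levels in CNS Neuron and Neuronal Progenitor were 0.260 and 0.268. Sema3c, known for its part in migration of cardiac neural crest, was highest in Epithelial Cell at 1.08, 0.925, 0.976 and 0.939. Its range there overlapped that of Chondrocyte, which reached 1.0 in its highest suspension. Sema3d, another secreted guidance cue, stood at 1.81, 1.13, 0.898 and 1.56 in Epithelial Cell and overlapped Gut Mesenchyme/Amniotic Mesoderm, whose highest suspension was 1.27. Sema3e, which can bind plexin D1 without a neuropilin, stood at 0.884, 0.663, 0.577 and 0.478 in Epithelial Cell. This was 3.97 times the level of Ependymal Cell, the second label at 0.159, and no suspension of any other deep label reached it. Sema3f, a ligand of neuropilin 2, was highest in Epithelial Cell at 0.382, 0.349, 0.366 and 0.214, and overlapped 4 other labels. Sema3b and Sema3g were close to the limit of detection, with 85 and 33 UMIs in all deep labels together. Sema3b was highest in Ependymal Cell at 0.0815, 0.118, 0.0237 and 0.0205, from 11 UMIs. Sema3g was highest there too, at 0, 0.0237, 0.0237 and 0.0615 from 5 UMIs, and overlapped the other 11 deep labels.

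Of the 12 transmembrane ligands, 9 were highest in Neuroectoderm/Glia, CNS Neuron or Neuronal Progenitor. Neuroectoderm/Glia, the label that carried neuronal markers, was highest for 10 members in all. The share of all genes highest in each label was not counted, so these tallies describe the members only. Sema6d, a class 6 ligand of A-type plexins, stood there at 3.81, 2.70, 2.64 and 2.38. That was 3.46 times the level of Ependymal Cell (0.855), and no suspension of another deep label reached it. Sema6c, of the same class, stood at 0.597, 0.608, 0.646 and 0.722 against 0.425 in CNS Neuron, with no overlap. Sema4g stood at 0.226, 0.214, 0.222 and 0.204 against 0.142 in Gut Mesenchyme/Amniotic Mesoderm, again with no overlap. Sema4a, known for its roles in immune cells and retina, stood at 0.193, 0.197, 0.151 and 0.139. It was clear of all labels except Hematoendothelial Progenitor/Endothelium, where 1 suspension of 15 to 25 cells reached 0.196. Sema4c, a plexin B2 ligand, stood at 0.296, 0.278, 0.343 and 0.219, and Neuroectoderm/Glia was matched by CNS Neuron at 0.278 over all suspensions. Sema4f stood at 0.0806, 0.0926, 0.0808 and 0.0219 and Sema6b at 0.118, 0.174, 0.0505 and 0.109, and both overlapped other labels.

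CNS Neuron was highest for Sema4b at 0.270, 0.212, 0.206 and 0.240, within the range of Neuroectoderm/Glia and Epithelial Cell. Sema7a, the member anchored to the membrane by a lipid and a ligand of plexin C1, was highest in CNS Neuron at 0.128, 0.121, 0.107 and 0.0630, and overlapped Neuroectoderm/Glia. Neuronal Progenitor was highest for 1 member. Sema5b, a transmembrane ligand with thrombospondin repeats that repels axons, stood there at 2.25, 2.28, 2.18 and 1.81. The second label was CNS Neuron at 0.731, so that the progenitors were 2.89 times higher, and no suspension of another deep label reached 1.81.

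The other 3 transmembrane ligands were highest outside those labels. Sema5a, the close relative of Sema5b, stood at 2.95, 2.37, 1.41 and 2.01 in Gut Mesenchyme/Amniotic Mesoderm and at 2.67, 3.0, 1.76 and 2.21 in Mesodermal Progenitor. These labels were not apart, at 2.35 and 2.34 over summed UMIs and 2.18 and 2.41 as means of the suspensions. The relatives thus had different orders of labels: Sema5b stood at 0.170 in Gut Mesenchyme/Amniotic Mesoderm and Sema5a at 0.486 in Neuronal Progenitor. Sema6a, a ligand of plexins A2 and A4, stood at 2.88, 2.86, 1.70 and 1.81 in Gut Mesenchyme/Amniotic Mesoderm and overlapped 6 other labels. Sema4d, a ligand of plexin B1 first known from lymphocytes, was highest in Hematoendothelial Progenitor/Endothelium at 0.327, 0.325, 0.346 and 0.481, and overlapped Erythroblast at 0.236 over all suspensions.

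**Figure D2:**
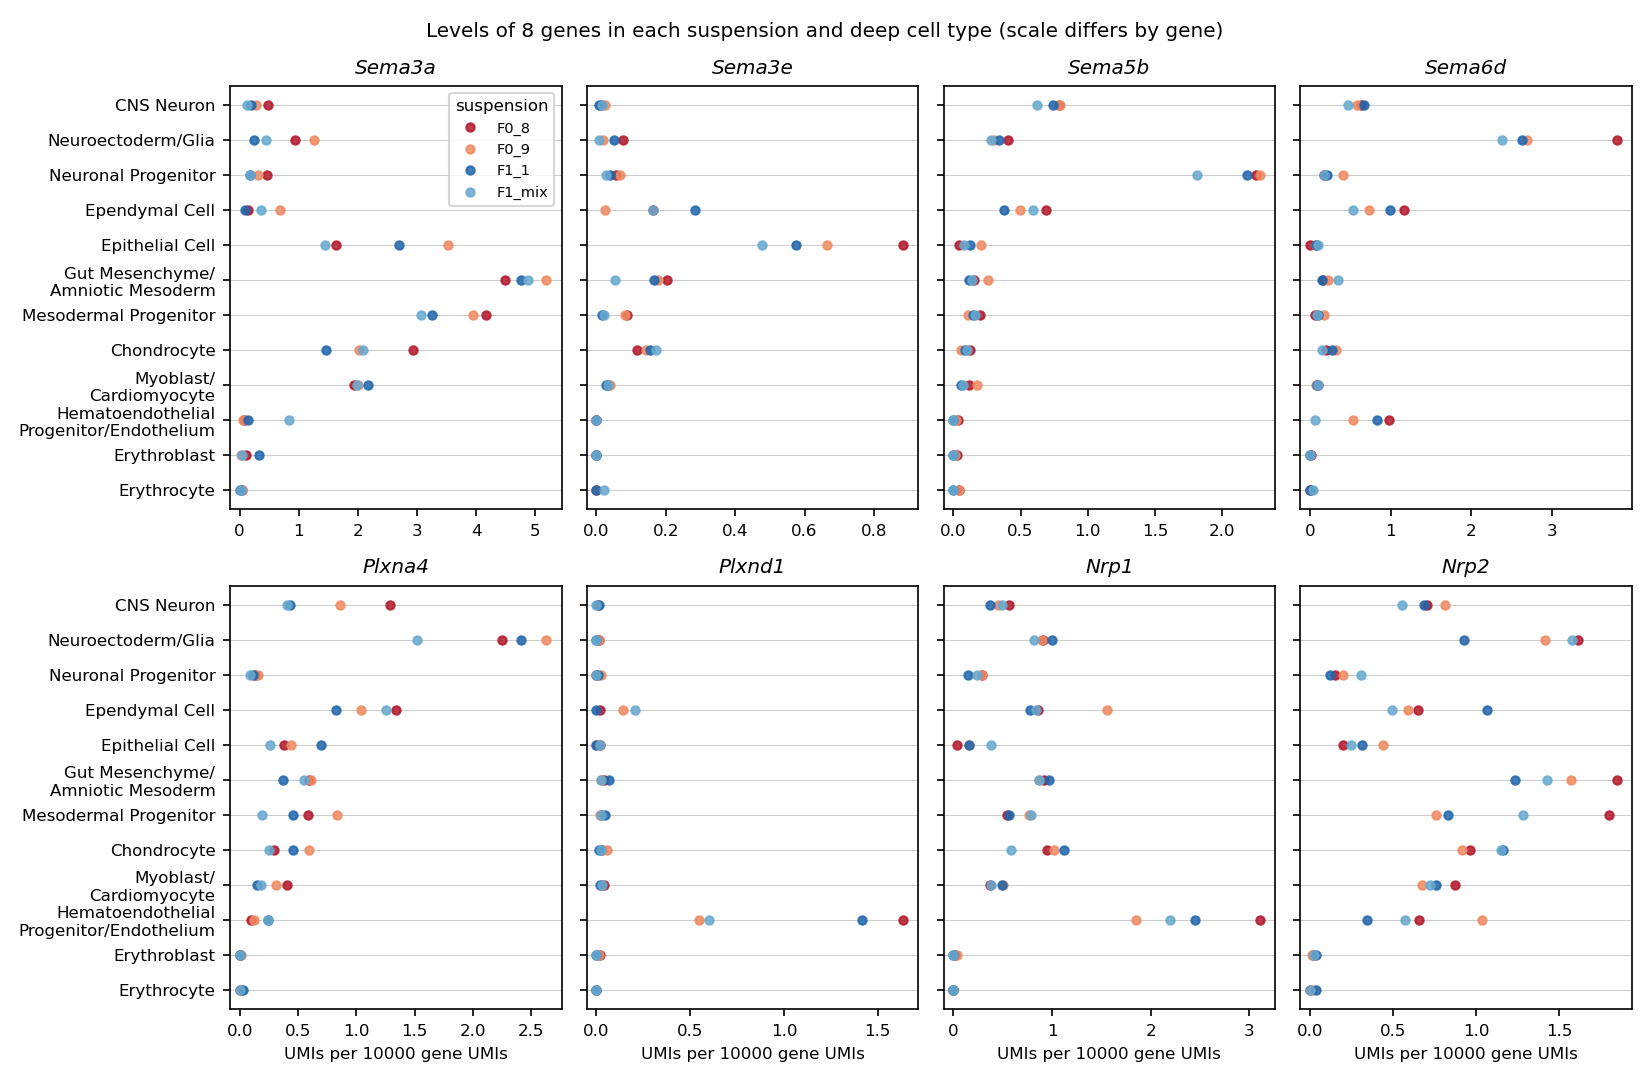
Level in each of the 4 suspensions (points, UMIs per 10000 gene UMIs) for 8 members in the 12 deep labels, each on its own scale. The 4 suspensions of Neuronal Progenitor lie between 1.81 and 2.28 for Sema5b and above all other labels, while the highest label of Nrp2 overlaps others.

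The A-type plexins, which carry class 3 and class 6 signals, were highest in Neuroectoderm/Glia or CNS Neuron. Plxna4, a receptor for Sema3a and Sema6a, stood at 2.25, 2.63, 2.41 and 1.52 in Neuroectoderm/Glia, 1.96 times the level of Ependymal Cell (1.13) and with no overlap. Plxna3 stood at 0.269, 0.249, 0.273 and 0.270 in Neuroectoderm/Glia against 0.196 in CNS Neuron, again apart from every other label. Plxna2 stood at 2.51, 2.19, 2.19 and 1.89 in Neuroectoderm/Glia and reached 2.23 in a suspension of CNS Neuron, so these labels were not apart. Plxna1, a receptor for Sema6d, was highest in CNS Neuron at 0.249, 0.405, 0.397 and 0.315, with 0.329 in Neuroectoderm/Glia. In Gut Mesenchyme/Amniotic Mesoderm, the label with the highest Sema3a, these genes stood at 0.135 (Plxna1), 0.671 (Plxna2), 0.0664 (Plxna3) and 0.554 (Plxna4).

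The other plexins spread over more labels. Plxnb1, the Sema4d receptor, was highest in CNS Neuron at 0.221, 0.387, 0.382 and 0.361 and overlapped 4 labels. Plxnb2 was highest in Hematoendothelial Progenitor/Endothelium at 0.687, 0.670, 0.587 and 0.662 but overlapped Chondrocyte, Ependymal Cell and Epithelial Cell. Plxnb3 had 4 UMIs in its highest label, Ependymal Cell, at 0.0204, 0.0237, 0 and 0.0410. Plxnc1, the Sema7a receptor, was highest in Hematoendothelial Progenitor/Endothelium at 0.360, 0.507, 0.518 and 0.602, with 0.397 in Neuroectoderm/Glia. Plxnd1, a plexin best known in blood vessels, stood at 1.64, 0.548, 1.42 and 0.602 in Hematoendothelial Progenitor/Endothelium, 10.4 times the level of the second label, Ependymal Cell (0.0932). No suspension of another deep label reached its lowest value.

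Neuropilins had contrasting orders. Nrp1, which also binds VEGF, was highest in Hematoendothelial Progenitor/Endothelium at 3.11, 1.85, 2.45 and 2.20, with 0.998 in Ependymal Cell and 0.903 in Gut Mesenchyme/Amniotic Mesoderm. Nrp2, which binds Sema3f and VEGF-C, was highest in Gut Mesenchyme/Amniotic Mesoderm at 1.85, 1.57, 1.23 and 1.43, and overlapped Neuroectoderm/Glia at 1.43 and Mesodermal Progenitor at 1.18 over all suspensions. Both were low in Neuronal Progenitor, at 0.238 for Nrp1 and 0.199 for Nrp2, and in Epithelial Cell, at 0.186 and 0.302.

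Over the 9 deep labels with at least 20 cells in every suspension, the 4 values of the highest label lay above all values of the others for 9 members: Sema3a, Sema3e, Sema4a, Sema4g, Sema5b, Sema6c, Sema6d, Plxna3 and Plxna4. That is 32.1% of the 28 members with at least 100 UMIs, against 17.2% of 13060 genes with as many UMIs. Over all 12 deep labels the number was 10, with Plxnd1 and Nrp1 added and Sema4a gone, and the share of all genes was 20.6%. The members with no such label included every B-type plexin, Sema3c, Sema3d, Sema6a and Nrp2. Of the 12 transmembrane semaphorins, 5 had one over the 9 labels.

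The windows before 3 members whose highest label stood apart are shown for reference. Of the 11 members apart over the 9 or 12 deep labels, 10 had a RefSeq promoter entry, and in these 3 a window of 250 bases lay wholly before the gene's full span in GRCm38.p6, while the others began at a start inside or overlapping it. They run 5′ to 3′ on the strand of the gene, and capitals mark matches on either strand to the GC box GGGCGG, the E-box CAGCTG (the same on both strands), the E-box CAGATG and the TATA motif TATAAA. Sema3e lies at chr5:14025026-14025275 (plus strand), Sema4a at chr3:88461183-88461432 (minus, 1 of 4 entries) and Sema6c at chr3:95160170-95160419 (plus, 1 of 2 entries).
Sema3e: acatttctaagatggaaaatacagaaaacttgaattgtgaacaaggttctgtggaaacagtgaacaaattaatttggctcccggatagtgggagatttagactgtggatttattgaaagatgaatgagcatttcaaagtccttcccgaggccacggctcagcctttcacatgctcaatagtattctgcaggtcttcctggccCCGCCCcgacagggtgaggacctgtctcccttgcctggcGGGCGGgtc
Sema4a: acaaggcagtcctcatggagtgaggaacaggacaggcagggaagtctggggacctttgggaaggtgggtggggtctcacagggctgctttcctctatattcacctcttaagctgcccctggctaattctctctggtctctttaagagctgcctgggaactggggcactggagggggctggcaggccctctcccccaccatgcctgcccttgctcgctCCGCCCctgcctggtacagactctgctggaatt
Sema6c: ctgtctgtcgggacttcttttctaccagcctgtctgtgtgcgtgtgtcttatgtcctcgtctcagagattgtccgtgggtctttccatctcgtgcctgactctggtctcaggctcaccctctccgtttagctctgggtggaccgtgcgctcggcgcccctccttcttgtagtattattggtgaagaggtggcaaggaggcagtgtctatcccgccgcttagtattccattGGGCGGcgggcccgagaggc
The GC box was found in all 3, in Sema3e on both strands, and the other motifs in none. Over all 37 entries of the 26 members with one, 27 held GGGCGG, 6 held CAGCTG, 2 held CAGATG and none held TATAAA. Among 32851 RefSeq promoter windows the shares were 32.7% for GGGCGG, 13.0% for CAGCTG, 14.4% for CAGATG and 12.4% for TATAAA. A match is a match of letters in this window and says nothing of a factor bound there.

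Endothelium and macrophages shared the Hematoendothelial Progenitor/Endothelium label, so its 76 cells were split by markers. Cells with at least 3 UMIs of 6 endothelial markers and none of 6 macrophage markers numbered 17 (6, 4, 4 and 3 in the suspensions), and the reverse class numbered 24 (4, 7, 4 and 9). The other 35 cells held UMIs of both sets or too few. Plxnd1 was found in 17 of 17 endothelial-marker cells, with levels of 3.33, 2.75, 2.15 and 1.14 against 0, 0, 0.315 and 0.131 in macrophage-marker cells. Sema6a had 73 UMIs in endothelial-marker cells, at 1.78, 2.24, 2.15 and 5.23, and 0 UMIs in the other class. Sema3a had 35 UMIs against 0, at 0.0774, 0.344, 0.614 and 6.37, so that most of them came from the 3 such cells of F1_mix. Nrp2 stood at 1.72 over all endothelial-marker cells and 0.199 over macrophage-marker cells, and its suspensions did not overlap. Plxna2 (17 against 1 UMIs), Plxna4 (12 against 2) and Sema4c (12 against 2) did the same on few molecules. Plxnb2 went the other way, at 1.94, 1.76, 0.944 and 1.18 in macrophage-marker cells and 0.310, 0.516, 0.153 and 0 in endothelial-marker cells. Nrp1 was in both classes, at 3.71 and 2.27, and its suspensions overlapped, as did those of Plxnc1 at 0.506 and 0.448. Sema4d stood at 0.399 in macrophage-marker cells and 0.101 in endothelial-marker cells, with overlap.

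In all, 7 of the 31 members lay above in endothelial-marker cells without overlap and 1 in macrophage-marker cells, beside 13.7% and 8.44% of the 8008 genes with at least 10 UMIs in these classes together. Only 12 members reached 10 UMIs, and the 8 did so mostly through the class where they were high, so nothing is read from these counts against each other. Globin took 3.06% of the UMIs of macrophage-marker cells and 0.0121% of those of endothelial-marker cells, and its part in these differences was not tested.

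**Figure D3:**
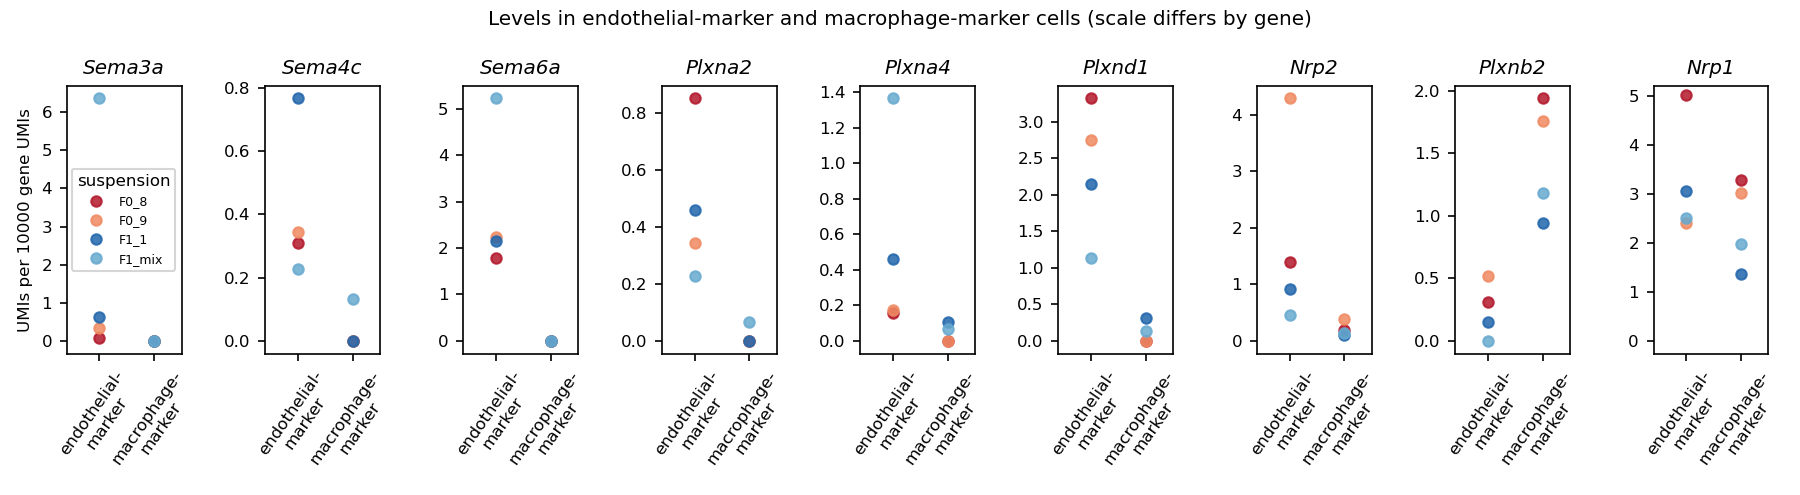
Level (UMIs per 10000 gene UMIs) of 9 members in endothelial-marker and macrophage-marker cells of the Hematoendothelial Progenitor/Endothelium label, 1 point a suspension. Plxnd1 is higher in all 4 endothelial-marker values (1.14 to 3.33), Plxnb2 in all 4 macrophage-marker values (0.944 to 1.94), and Nrp1 overlaps.

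Most class 3 ligands signal through a neuropilin and an A-type plexin on the same cell, so both were counted in single cells thinned to 10000 UMIs. Cells below that depth were left out. The share of cells with at least 1 UMI of a neuropilin and 1 of an A-type plexin was 50.9% ± 7.37 (SD over 4 suspensions) of 330 cells in Neuroectoderm/Glia. Gut Mesenchyme/Amniotic Mesoderm followed at 35.8% ± 1.85, Mesodermal Progenitor at 33.3% ± 1.85, Chondrocyte at 30.2% ± 11.1 and CNS Neuron at 30.0% ± 2.87. Neighbours in this order of 4 labels overlapped between suspensions, and all lay below the lowest suspension of Neuroectoderm/Glia at 43.6%. Ependymal Cell stood at 28.6% ± 11.4 and Hematoendothelial Progenitor/Endothelium at 25% ± 5.51. Lower were Myoblast/Cardiomyocyte at 19.0%, Neuronal Progenitor at 11.3% ± 3.98 and Epithelial Cell at 8.89% ± 5.02. Among 60 Erythrocyte cells, which should lack these receptors, the count was 0, which allows a share of up to 5%, with a neuropilin UMI in 1.67% of cells and an A-type plexin UMI in 5%.

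Labels rich in ligand differed in their share of receptor cells. A class 3 semaphorin UMI was found in 84.0% of cells of Gut Mesenchyme/Amniotic Mesoderm, where 35.8% held the receptor pair, but in 80.0% of Epithelial Cell, where 8.89% did. Epithelial Cell and Neuronal Progenitor overlapped in the share with the pair and changed order with depth, at 6.0% and 4.41% after thinning to 5000 UMIs and 21.2% and 15.7% without thinning. At 5000 UMIs the shares were 34.8% in Neuroectoderm/Glia, 21.6% in Gut Mesenchyme/Amniotic Mesoderm, 17.6% in Mesodermal Progenitor, 16.3% in Chondrocyte, 14.8% in Ependymal Cell and 14.4% in CNS Neuron, so the levels depend on depth. In CNS Neuron a class 3 semaphorin UMI was found in 25.9% of 317 cells, and 215 cells of that label were under the depth. The receptor pair was found there in 32.8%, 31.7%, 30.6% and 26.3% of cells by suspension. All these shares cover cells with a UMI, so a cell without one may still express the gene.

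In the shallow labels, 30 of 31 members stood higher than in the deep labels once mitochondrial UMIs were set aside, with a median ratio of 3.05. Among 13047 genes with at least 100 UMIs in deep labels, 60.0% stood higher and the median ratio was 1.32. The ratio was largest for Sema5b (4.97), Plxnb1 (4.80), Sema3a (4.65), Plxna4 (4.59) and Sema5a (4.49). It was smallest for Plxnb3, which had 0 UMIs in the shallow labels and 11 in the deep ones, then Sema4a (1.52) and Sema4g (1.81). Members tend to be long genes, and length moved with this ratio. All 14 members over 100 kb stood higher (median ratio 3.20), beside 97.6% of 2128 genes over 100 kb (median 2.95). Of the 17 shorter members 16 stood higher, with a median of 2.45, against 52.5% of all shorter genes (median 1.07). The part of gene length, low depth and mitochondrial share in this was not tested.

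The members' order in a shallow label often resembled that of a deep one. Over the 31 genes, on a log2 scale with 0.1 added, the members' levels relative to their mean over the deep labels outside red blood cells had a Pearson r of 0.852 between Midgut and Neuroectoderm/Glia, 0.832 between Hepatocyte and Gut Mesenchyme/Amniotic Mesoderm, and 0.791 between Foregut and Neuronal Progenitor. Within single suspensions these ranged from 0.606 to 0.856, from 0.587 to 0.805 and from 0.624 to 0.770. In F0_9 Hepatocyte had a slightly higher value with Mesodermal Progenitor (0.601). Midgut was close to CNS Neuron as well, at 0.788, and from 0.524 to 0.791 within suspensions, which overlaps its range with Neuroectoderm/Glia. Endodermal Progenitor resembled no deep label, with a highest value of 0.257 that ran from -0.0746 to 0.152 within suspensions. The genes are not independent replicates, and these values are descriptions. Sema3a stood at 11.9 in Hepatocyte, Sema5b at 6.87 in Foregut and Sema6d at 3.25 in Midgut, each the highest of the 4 shallow labels for that gene.

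**Figure D4:**
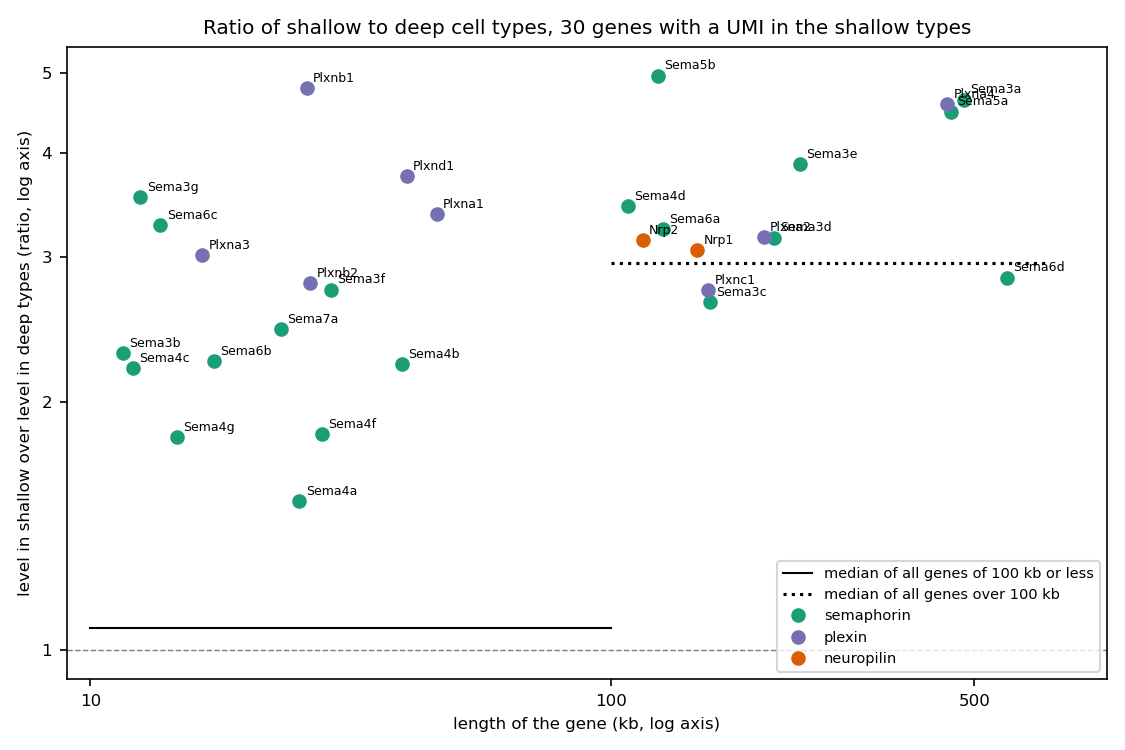
Ratio of a member's level in shallow labels to that in deep labels, outside mitochondrial UMIs, against gene length in kb, both on log axes, for the 30 members with a UMI in the shallow labels (Plxnb3 had none), with lines at the medians of all genes of 100 kb or less (1.07) and over 100 kb (2.95). All 14 members over 100 kb lie above 1, and their median ratio is 3.20.

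Founders were compared with F1 embryos within each label, by edgeR's quasi-likelihood test on summed UMIs with 2 suspensions a side. In 13 labels with at least 20 cells in every suspension, 208 pairs of a member and a label had enough UMIs to test, for 27 members. Sema3b, Sema3g, Plxnb3 and Plxnd1 were tested in none. After Benjamini-Hochberg adjustment over all genes of a label, 6 pairs were higher in founders and 0 were lower, the latter with 6 pairs at an unadjusted p under 0.05. The 6 are 2.88% of the pairs, against 0.492% of 99241 pairs over all genes called higher and 0.260% called lower. The labels come from the same 4 suspensions, so their results are not independent.

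Sema6a in Gut Mesenchyme/Amniotic Mesoderm stood at 2.88 and 2.86 in founders and 1.70 and 1.81 in F1, a log2 difference of 0.68 (SE 0.0751, fold 1.61, edgeR adjusted p 0.00233), where 1.03% of genes were called higher. Plxna4 in CNS Neuron stood at 1.29 and 0.859 against 0.435 and 0.406, a log2 difference of 1.33 (SE 0.206, fold 2.51, edgeR adjusted p 0.0153), where 0.474% of genes were called higher. Sema3a in Neuroectoderm/Glia stood at 0.941 and 1.25 against 0.242 and 0.452, a log2 difference of 1.60 (SE 0.256, fold 3.02, edgeR adjusted p 0.0354), where the share of all genes was 0.656%. In these labels both founders lay above both F1 suspensions for the gene named. Without F0_8 the call on Plxna4 in CNS Neuron was lost (adjusted p 0.222), and the call on Sema3a in Neuroectoderm/Glia was lost without F1_1 (0.0927) and without F1_mix (0.0621). Sema6a in Gut Mesenchyme/Amniotic Mesoderm passed in each of 9 alternatives, of which the 4 that leave out a suspension take the spread of the lone one from the other generation.

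The remaining pairs were smaller or less stable. In Mesodermal Progenitor, where 0.723% of genes were called higher, Sema5a stood at 2.67 and 3.0 against 1.76 and 2.21, a log2 difference of 0.50 (SE 0.107, edgeR adjusted p 0.0368). Sema3a stood in that label at 4.17 and 3.95 against 3.26 and 3.06, a log2 difference of 0.35 (SE 0.0776, edgeR adjusted p 0.0433). Each of these 2 passed in 4 of 9 alternatives. Plxna4 in Midgut, a shallow label with 1.24% of genes called higher, stood at 3.11 and 4.87 against 2.16 and 1.71, a log2 difference of 1.12 (SE 0.333, edgeR adjusted p 0.0462), and passed in 0 of 7 alternatives.

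Beyond the calls, 46 of 208 pairs (22.1%) had an unadjusted p under 0.05, 40 of them higher in founders, against 10.2% of all pairs. Both founders lay above both F1 suspensions in 65 pairs, 31.25% against 20.8% over all genes, and below in 26, 12.5% against 19.8%. The median log2 difference was 0.18 over the members' pairs and -0.000757 over all pairs. Sema5a lay above in 9 of 11 labels, from 0.743 and 0.593 against 0.466 and 0.478 in Epithelial Cell to 6.99 and 7.52 against 4.51 and 5.14 in Hepatocyte. Plxna4 lay above in 7 of 11 labels, with Neuroectoderm/Glia, its highest deep label, among the exceptions at 2.25 and 2.63 against 2.41 and 1.52. Sema3d lay above in 4 of 7 and Sema5b in 5 of 10, while Plxna2 lay above in 3 and below in 4 of 12 labels.

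Gene length moved with these differences as well. All 6 called pairs are of genes over 100 kb, and 1.74% of the pairs of such genes were called higher. Members over 100 kb lay above without overlap in 53 of 131 pairs (40.5%), against 29.7% for all genes of that length. The shorter members did so in 12 of 77 (15.6%), beside 20.8% of pairs over genes of any length. The share over all shorter genes was not computed. The median log2 difference was 0.29 for members over 100 kb, 0.10 for all genes over 100 kb and -0.03 for members of 100 kb or less. The share of UMIs from genes over 100 kb was higher in both founders than in both F1 suspensions in 12 of the 13 labels, for example 24.8% and 23.7% against 21.2% and 20.9% in Neuroectoderm/Glia. With size factors taken from genes over 100 kb, 5 member pairs were called, which include 3 of the 6: Sema6a in Gut Mesenchyme/Amniotic Mesoderm, Plxna4 in CNS Neuron and Sema3a in Neuroectoderm/Glia. The others missed the threshold by edgeR with log2 differences close to those above, at 0.46 for Sema5a (adjusted p 0.0514) and 0.32 for Sema3a (0.0696) in Mesodermal Progenitor and 1.08 for Plxna4 in Midgut (0.0640). Median depth per cell was lower in F0_8 and F0_9 (10880 and 11904.5 UMIs) than in F1_1 and F1_mix (12996 and 13267). The part of the long-gene share in the result was not otherwise tested, and that of depth was not tested.

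**Figure D5:**
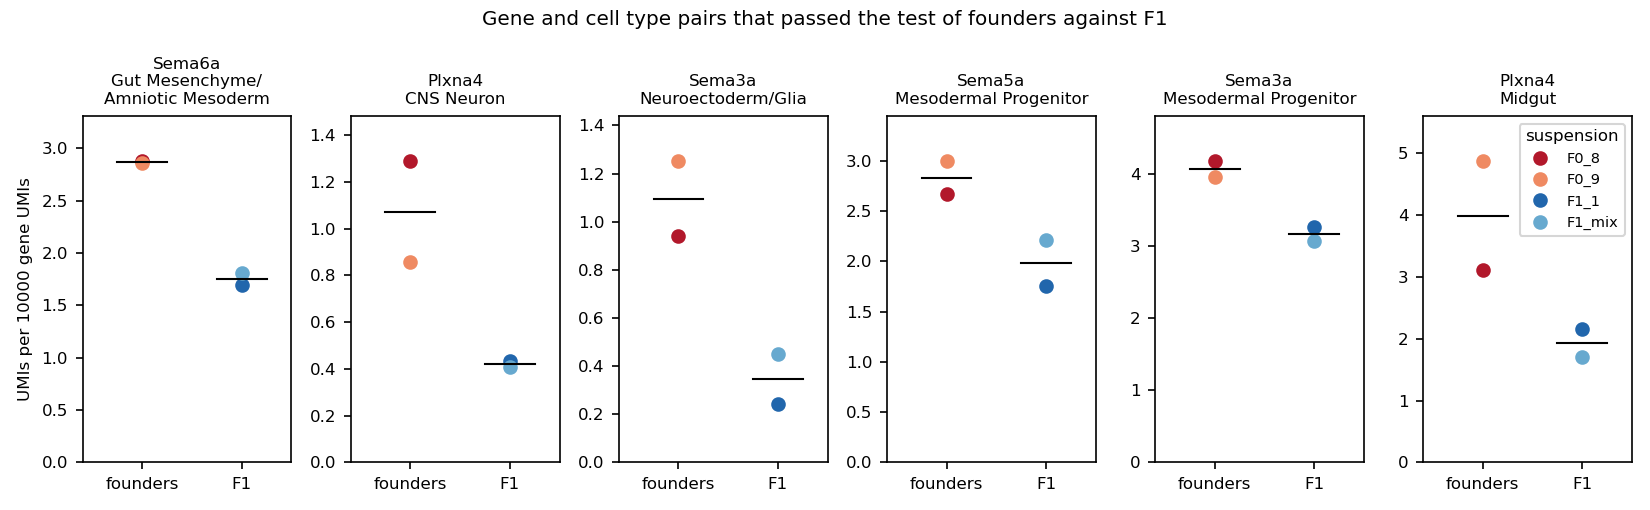
Levels (UMIs per 10000 gene UMIs) of the 6 called pairs of a member and a label in the founder (F0_8, F0_9) and F1 (F1_1, F1_mix) suspensions, with bars at the means of each generation. Both founder points lie above both F1 points in every pair, for example 2.88 and 2.86 against 1.70 and 1.81 for Sema6a in Gut Mesenchyme/Amniotic Mesoderm.

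A list of pathway partners was read from the same fits, and its difference from the members was not tested. The list holds 40 genes, among them adhesion coreceptors such as L1cam and Nrcam, the collapsin response mediators Dpysl2 to Dpysl5 and Crmp1, the MICAL oxidases, and GTPases and their exchange factors. Of these 37 were tested in 334 pairs, and 1 was called higher and 0 lower, which is 0.299% against 0.492% of all pairs, with 43 pairs (12.9%) at an unadjusted p under 0.05 against 10.2% of all pairs. That pair was Chl1, an adhesion molecule of the L1 family that can act as a coreceptor for Sema3a with neuropilin, in Midgut at 4.12 and 3.10 in founders and 0.912 and 2.80 in F1 (log2 difference 1.18, SE 0.331, edgeR adjusted p 0.0267). The call was lost without F0_8 (adjusted p 0.794), without F1_1 (0.953) and without the filter on low counts (0.527), and the log2 difference ranged from 0.64 to 2.13 with 1 suspension left out. With 1 suspension left out, pathway calls went in both directions, with 6 of 7 higher in founders without F0_9 and 1 of 6 higher without F1_1. Founders lay above without overlap in 63 of the 334 pathway pairs and below in 68, where the shares over all genes were 20.8% and 19.8%. The median log2 difference of the pathway pairs was -0.02.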

How the data were processed

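Single-cell suspensions of E11.5 embryos were tagged with multiplexing oligos, pooled and sequenced with 3′ chemistry. The authors made the deposited UMI counts against mm10 (the file headers give Cell Ranger 7.2.0). They annotated the cells in Seurat after their own filters on cells, free RNA and doublets, which were not run again here. The paper states that cells with a mitochondrial share of 5% or more were excluded. By the deposited counts, few annotated cells of the shallow labels lie under 5%. These are 2 of 268 in Endodermal Progenitor, 5 of 225 in Foregut, 15 of 543 in Hepatocyte and 8 of 333 in Midgut. The deposited values are raw whole-number counts per gene and cell, and the deposited cell table gives the annotation and the suspension of each cell. The suspension was the replicate, and founders (F0_8, F0_9) and F1 (F1_1, F1_mix) follow the series design and that table. The number of unused columns of per-sample values was 0.

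Counts were summed per label and suspension in Python 3.11.15 (pandas 2.3.3, scipy 1.17.1, numpy 2.4.6), and each level is UMIs per 10000 gene UMIs. A label was deep where its median depth times 3 was at least that of all cells. Founders and F1 were compared with edgeR 4.0.16 in R 4.3.3, by its quasi-likelihood test with TMM scaling, its filter on low counts, a threshold of 0.05 after Benjamini-Hochberg adjustment over all genes tested in a label, and at least 20 cells in each sum. DESeq2 1.42.0, RLE scaling, no filter, cells under 5% mitochondrial UMIs, each suspension left out, and size factors from genes over 100 kb served as alternatives. Every member was named in its highest deep label. Also named were every member past the threshold, up to 10 pathway genes past it, the 5 largest and 3 smallest ratios of shallow to deep labels, and members without overlap between endothelial-marker and macrophage-marker cells. The members, the pathway list and the marker sets were chosen with earlier results of these data known. The result of 1 marker set is not reported here. Gene lengths and promoters came from RefSeq on GRCm38.p6 and matched 21224 of the features by symbol. Intervals and limits cover counting error only. Whether members with close paralogs lost reads to them is unknown, and levels are 3′ counts without correction for length.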

Additional observations from a re-analysis of the deposited data

Results flagged for a closer look

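In 4 of 31 groups of 4 suspensions, each the highest deep label of a member, 1 suspension lay far from the others, where chance flags about 1 in 20 groups. These were Sema4d in Hematoendothelial Progenitor/Endothelium, at 0.481 in F1_mix, Sema4f in Neuroectoderm/Glia, at 0.0219 in F1_mix, Plxna3 in Neuroectoderm/Glia, at 0.249 in F0_9, and Plxnb1 in CNS Neuron, at 0.221 in F0_8 (UMIs per 10000 gene UMIs). For Sema6a the suspensions were ordered in opposite ways in 2 labels. In Neuroectoderm/Glia both founders lay below both F1 suspensions (1.92 and 1.77 against 2.19 and 2.05, a log2 difference of -0.20 that did not pass the test, adjusted p 0.433 by edgeR), while in Gut Mesenchyme/Amniotic Mesoderm both lay above (log2 difference 0.68). The difference between the labels was not tested.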

How the results depend on the processing

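The count of member pairs called between founders and F1 (6) was 6 with DESeq2, 5 with RLE scaling, 7 in cells under 5% mitochondrial UMIs and 5 with size factors from genes over 100 kb, a choice made after seeing the data. The 6 pairs of DESeq2 are not the same 6. Sema3a (DESeq2 adjusted p 0.277) and Sema5a (0.125) in Mesodermal Progenitor were not among them, and Plxna4 in Midgut had no value. All of these were higher in founders. It was 29 (25 higher) without the filter on low counts, and between 7 and 14 when 1 suspension was left out (7 without F0_8, 14 without F0_9, 13 without F1_1, of which 11 were higher, and 11 without F1_mix), where the lone suspension of a generation is assumed to vary like those of the other. The pathway count (1) was 0 with DESeq2, 12 (7 higher) without the filter, 0 in cells under 5% mitochondrial UMIs, 2 (1 higher) with the long-gene size factors and between 0 and 7 with 1 suspension left out (6 of 7 higher without F0_9, 1 of 6 without F1_1 and 2 of 4 without F1_mix). Chl1 in Midgut, the pathway call of the main fit, and Plxna4 in Midgut had no value with DESeq2. Midgut held too few cells under 5% mitochondrial UMIs for a fit, so neither pair could be called under these settings. The cause of the shifts was not otherwise tested. The calls on named pairs lost their side of the threshold in 23 of 59 checks and never changed direction. The share of CNS Neuron cells with a neuropilin and an A-type plexin UMI (30.0%) was 14.4% after thinning to 5000 UMIs, which removes UMIs by construction, 29.5% without thinning and 29.2% to 31.7% with 1 suspension left out. The count of members whose highest label stood apart (9) ranged from 9 to 10 under the settings tried and from 11 to 13 with 1 suspension left out, that of members higher in shallow labels (30) from 29 to 30, and that of members apart between endothelial-marker and macrophage-marker cells (8) from 7 to 10. No paired analysis was possible because the labels give the groups no shared replicate numbers. Plxnb3, Sema3b and Sema3g held too few UMIs to pass the filter on low counts in any label and were not compared in the main fit. With 2 suspensions a side, differences in other members of low abundance may have gone undetected. A label that held no cells or too few under a setting gave no value, as for Midgut in cells under 5% mitochondrial UMIs.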
